A study of Rattus norvegicus with 48 samples.

Results

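The data describe 7 genes of the intercalated cell, the acid- and ammonia-handling cell of the renal collecting duct, in the cortex and medulla of rats. The genes were taken by name: the proton pump subunit genes Atp6v1g3, Atp6v1b1, Atp6v0a4 and Atp6v0d2, the ammonia transporter genes Rhcg and Rhbg, and the transcription factor gene Foxi1. All 7 were found, each with 1 probe, among the 13278 genes and 22226 probes of the Illumina RatRef-12 BeadChip tables. RNA was measured on 48 arrays in 8 groups of 6. In each tissue, control rats were compared with rats whose chow held 5% hydroxy-L-proline (HLP), which the body turns in part into oxalate, rats given apocynin (an inhibitor of NADPH oxidase; 4 mmol according to the labels) in the drinking water, and rats given both (HLP+Apocynin), at day 28. The rats were male. The labels name Wistar rats and the methods name Sprague-Dawley rats. The methods describe no group given apocynin alone, which only the labels hold.

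The vacuolar H+-ATPase moves protons out of the cell at the cost of ATP. Its cytoplasmic V1 sector holds the ATP-splitting subunits and its V0 sector lies in the membrane and carries the protons. The kidney uses forms of several subunits that are concentrated in intercalated cells, among them the B1, G3, a4 and d2 subunits. In humans, loss of the B1 or a4 subunit causes distal renal tubular acidosis. Rhbg, on the basolateral side, and Rhcg, on the apical and basolateral sides, let ammonia cross the collecting duct cell into the urine, where it carries acid. Foxi1 is a forkhead transcription factor, and mice without it lack normal intercalated cells and have acidosis.

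Before any comparison, 3 properties of the arrays bear on the values. First, the deposited tables name the arrays differently. Matched by their values, 40 of 48 arrays bear another sample's name in the table of log2 values than in the table of signals, and 24 of 48 belong to another diet group there. No array changes tissue or apocynin treatment. Control arrays trade groups only with HLP arrays, and apocynin arrays only with HLP+Apocynin arrays. Groups below follow the signal table. The naming of the log2 table is called the alternative naming, and each call of the 7 genes between diet groups is given beside its value under it. Second, control arrays share a block of columns with HLP arrays, and apocynin arrays share another with HLP+Apocynin arrays, so that apocynin and block cannot be told apart. HLP against control and HLP+Apocynin against apocynin lie within a block. Last, the arrays of control number 4 went against their tissue labels. The mean log2 signal of 12 proximal tubule markers was 11.36 on its cortex array and 11.92 on its medulla array, and that of 8 markers of the inner medulla and thin limb was 9.89 and 8.56. For the inner medulla markers the other 23 arrays of each tissue spanned 8.50 to 9.18 in the cortex and 8.91 to 10.62 in the medulla, and for the proximal tubule markers 11.45 to 12.06 and 9.77 to 11.90. On 1 further array, HLP+Apocynin medulla 3, the 7 markers of fibroblasts and smooth muscle averaged 10.52, against 7.97 to 8.49 in the control medulla. The main results are given with and without both arrays of these 2 numbers, called the 4 doubted arrays below, of which 2 lie in each tissue. Median signals were 36.4 to 50.6 in the cortex and 49.3 to 75.1 in the medulla, and 48.2% to 52.9% of the probes were detected.

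All 7 probes were detected (detection p under 0.05) on 48 of 48 arrays. Over all arrays the deposited signal, a linear intensity with no background subtraction, ran from 3246 to 8496 for Atp6v1g3, from 59.3 to 129.8 for Atp6v1b1, from 221 to 595 for Atp6v0a4 and from 425 to 1145 for Atp6v0d2. It ran from 77.2 to 187.1 for Rhcg, from 369 to 1538 for Rhbg and from 106 to 343 for Foxi1. Signals of different probes depend on the probe as well as on the transcript and were not set against each other. The probes of Atp6v1b1, Rhcg and Foxi1 lay near the negative controls, where the background correction of the main fit narrows all differences. For these 3 genes the change is also given with background parameters that are robust to a few bright negative controls.

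**Figure D1:**
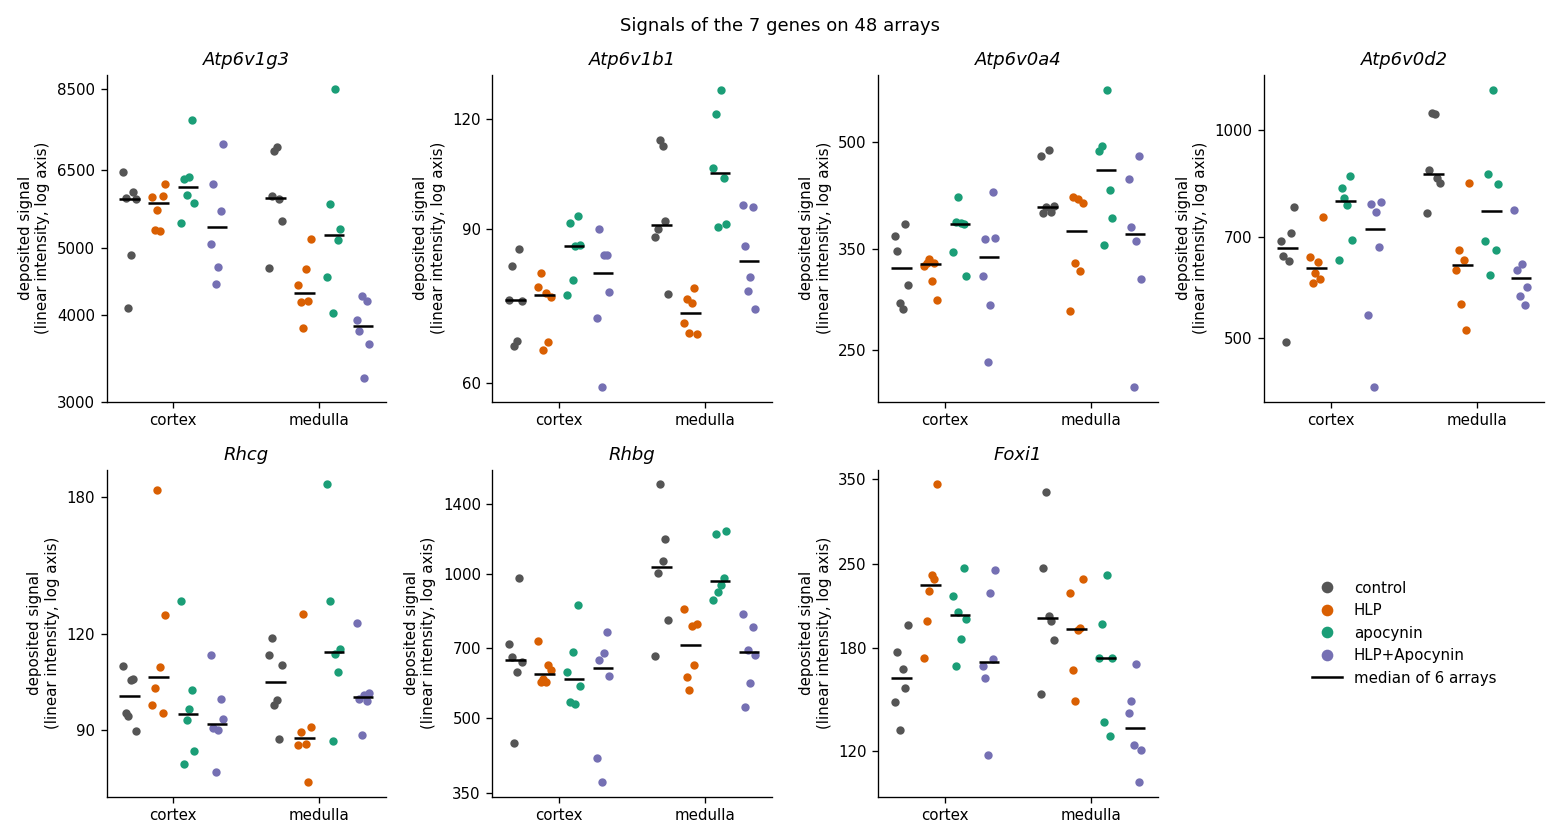
Deposited signals (linear intensity on a log axis) of the 7 genes in the cortex and medulla; each point is 1 array and each bar is the median of the 6 arrays of a group, named as in the signal table. In the medulla the HLP+Apocynin arrays of Atp6v1g3 lie between 3246 and 4270 and the control arrays between 4691 and 7006, while in the cortex the HLP+Apocynin and control arrays overlap for every gene.

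Atp6v1g3 encodes the kidney form of the G subunit in the stalk of the V1 sector. In the medulla its signal was 4691, 5923 and 7006 (lowest, median and highest of 6 arrays) in controls, 3834, 4306 and 5156 with HLP, 4026, 5236 and 8496 with apocynin, and 3246, 3867 and 4270 with HLP+Apocynin. All 6 HLP+Apocynin arrays were below all 6 control arrays in deposited signal, as for 1.52% of the probes tested. After normalization 6 of 6 were below the control mean and 4 of 6 below every control. The gene was lower in HLP+Apocynin than in control medulla by 0.53 on the log2 scale (log2 fold change −0.53, SE 0.14, limma adjusted p = 0.0219, n = 6). Under the alternative naming the change was −0.18 (limma adjusted p = 0.532). Without control number 3 it was −0.48 and without HLP+Apocynin number 1 it was −0.49, each with limma adjusted p = 0.0537, and without the 4 doubted arrays it was −0.51 (limma adjusted p = 0.0306). In the medulla HLP alone gave −0.26 (SE 0.14, adjusted p = 0.804) and apocynin alone −0.23 (adjusted p = 0.349), and neither passed. In the cortex the signals of Atp6v1g3 were 4103, 5900 and 6441 in controls, 5304, 5807 and 6193 with HLP and 4439, 5372 and 7080 with HLP+Apocynin. These groups overlapped, and the changes against control were 0.15 (adjusted p = 0.394) and 0.06 (adjusted p = 0.711).

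Atp6v1b1 encodes the B1 subunit of the V1 sector, which takes part in binding ATP. Its signal was 66.0, 74.5 and 85.3 in control cortex, 65.4, 75.5 and 80.1 in HLP cortex and 59.3, 80 and 90 in HLP+Apocynin cortex. In the medulla it was 75.9, 90.9 and 113.6 in controls, 68.2, 72.1 and 77.1 with HLP, 90.3, 104.2 and 129.8 with apocynin, and 72.9, 82.6 and 95.9 with HLP+Apocynin. Only the highest HLP array of the medulla was above the lowest control array there. The change with HLP in the medulla was −0.07 (SE 0.03, limma adjusted p = 0.754), or −0.30 (SE 0.15, adjusted p = 0.800) with robust background parameters, and no comparison of diet groups passed for this gene.

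The promoter of Atp6v1b1 is shown because Foxi1, a forkhead factor, is among the genes that changed. RefSeq promoter windows (assembly GRCr8, 250 bases before the start of the gene to 50 after it) were matched for 6 of the 7 genes. The forkhead core TGTTTAC, or GTAAACA on the other strand, was searched in them, and 1 of 6 held it, against 3.78% of 33469 rat promoter windows of 300 bases. The match lies 93 bases before the start of Atp6v1b1 and is written in capitals. It is a match of letters in a window and was not tested as a binding site.
Atp6v1b1, chr4:117781194-117781493, plus strand: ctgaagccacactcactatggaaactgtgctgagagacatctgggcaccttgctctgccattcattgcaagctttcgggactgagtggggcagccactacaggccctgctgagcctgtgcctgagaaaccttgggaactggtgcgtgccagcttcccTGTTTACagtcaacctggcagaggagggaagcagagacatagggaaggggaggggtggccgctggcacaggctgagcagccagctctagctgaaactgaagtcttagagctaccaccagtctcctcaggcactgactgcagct

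Atp6v0a4 encodes the a4 subunit, the kidney form of the subunit through which protons enter and leave the V0 sector. Its signal was 286, 329 and 380 in control cortex, 295, 332 and 338 in HLP cortex and 240, 340 and 424 in HLP+Apocynin cortex. In the medulla it was 394, 403 and 487 in controls, 284, 371 and 416 with HLP and 221, 368 and 476 with HLP+Apocynin. The groups overlapped in both tissues. The change in HLP+Apocynin medulla was −0.22 (SE 0.18, limma adjusted p = 0.465), with the lowest signal on the array HLP+Apocynin number 3. It was 0.01 (adjusted p = 0.980) without the 4 doubted arrays.

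Atp6v0d2 encodes a kidney form of the d subunit, which joins the V0 sector to the stalk. In the medulla its signal was 759, 864 and 1060 in controls, 513, 638 and 839 with HLP, 617, 763 and 1145 with apocynin, and 559, 610 and 768 with HLP+Apocynin. On the normalized scale all 6 HLP+Apocynin arrays lay below all 6 control arrays, as for 2.05% of the probes tested. The gene was lower in HLP+Apocynin than in control medulla by a log2 fold change of −0.52 (SE 0.14, limma adjusted p = 0.0267). Under the alternative naming it was −0.06 (adjusted p = 0.856). The change was −0.39 (adjusted p = 0.0793) without the 4 doubted arrays, −0.44 (adjusted p = 0.0611) without HLP+Apocynin number 3 and −0.47 (adjusted p = 0.0643) without control number 3. With HLP alone the medulla gave −0.35 (SE 0.14, adjusted p = 0.653), 5 of 6 arrays lying below every control. With apocynin alone it gave −0.35 (adjusted p = 0.142). In the cortex its signals overlapped, at 494, 675 and 773 in controls, 601, 633 and 749 with HLP and 425, 720 and 786 with HLP+Apocynin, and the changes against control were 0.11 and 0.01.

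Rhcg, the apical and basolateral ammonia transporter, was called in 1 comparison of diet groups, and single arrays lay high in 2 groups. In the cortex its signal was 89.7, 99.7 and 109.0 in controls, 94.8, 105.4 and 184.3 with HLP, 81.3, 94.3 and 132.3 with apocynin, and 79.6, 91.8 and 112.7 with HLP+Apocynin. The highest value of the cortex was on HLP number 3, and the highest of the apocynin group on number 1. The medulla arrays of the same numbers were also the highest of their groups, at 127.3 against 77.2 to 90.9 for the other 5 HLP arrays and at 187.1 against 87.1 to 132.1 for the other 5 apocynin arrays. After normalization 6 of 6 HLP+Apocynin cortex arrays were below the HLP mean and 5 of 6 below every HLP array, and 6 of 6 HLP arrays were above the control mean and 3 above every control array. HLP+Apocynin was lower than HLP in the cortex by a log2 fold change of −0.22 (SE 0.08, limma adjusted p = 0.0488), or −0.49 (SE 0.16, adjusted p = 0.0288) with robust background parameters. Without HLP number 3 it was −0.12 (adjusted p = 0.0797), without the 4 doubted arrays −0.20 (adjusted p = 0.106), and under the alternative naming −0.14 (adjusted p = 0.284). The call held in 5 of the 12 fits that left out 1 array, with values from −0.25 to −0.12. Its change between HLP+Apocynin and control was −0.07 (adjusted p = 0.604) in the cortex and −0.01 (adjusted p = 0.909) in the medulla.

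**Figure D2:**
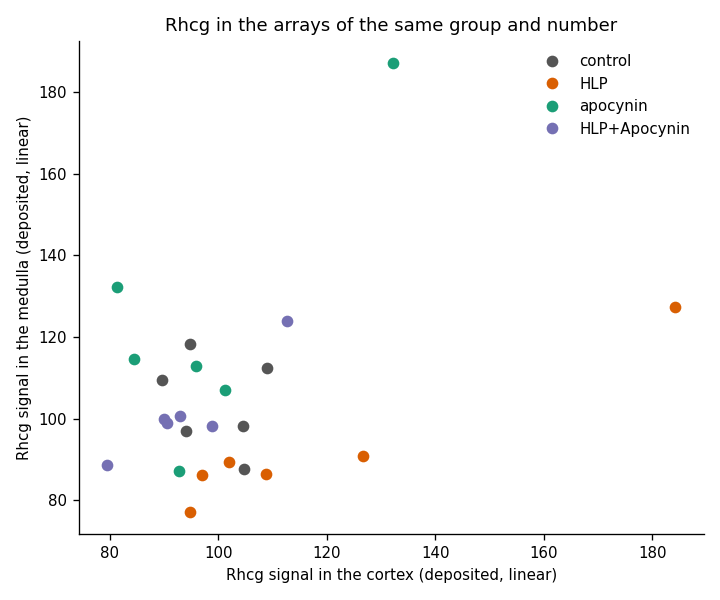
Deposited Rhcg signal (linear intensity) in the cortex, on the x axis, and in the medulla, on the y axis, of arrays with the same group and number; each of the 24 points is 1 such pair. HLP number 3 (184.3 and 127.3) and apocynin number 1 (132.3 and 187.1) stand away from the other 22 pairs, which lie at or below 126.7 in the cortex and 132.1 in the medulla.

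Rhbg had no change between diet groups that passed the test in the main fit. In the medulla its signal was 676, 1034 and 1538 in controls, 572, 713 and 844 with HLP, 881, 967 and 1227 with apocynin, and 527, 687 and 825 with HLP+Apocynin. The lowest control array lay inside the range of the HLP+Apocynin arrays. The change in HLP+Apocynin medulla was −0.58 (SE 0.19, limma adjusted p = 0.0606). It did not pass the threshold, and was −0.26 (adjusted p = 0.528) under the alternative naming. It passed with median scaling (−0.81, adjusted p = 0.0237), without control number 1 (−0.69, adjusted p = 0.0315) and without HLP+Apocynin number 5 (−0.67, adjusted p = 0.0362). In the cortex the signal was 446, 663 and 981 in controls, 595, 618 and 724 with HLP and 369, 638 and 757 with HLP+Apocynin, with changes against control of 0.05 (adjusted p = 0.910) and −0.24 (adjusted p = 0.384).

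Foxi1 was the gene with the most calls. In the cortex its signal was 130, 159.7 and 196.7 in controls, 173.1, 230.8 and 342.7 with HLP, 167.7, 204.8 and 246.3 with apocynin, and 118.0, 170.0 and 244.4 with HLP+Apocynin. After normalization 4 of 6 HLP arrays were above every control array, and 6 of 6 were above the control mean. Foxi1 was higher in HLP than in control cortex by a log2 fold change of 0.54 (SE 0.14, limma adjusted p = 0.046), or 0.63 (SE 0.17, adjusted p = 0.0508) with robust background parameters. The call rested on single arrays, since it held in 4 of the 12 fits that left out 1 array and was 0.45 (adjusted p = 0.116) without HLP number 6 and 0.51 (adjusted p = 0.117) without control number 3. Without the 4 doubted arrays it was 0.52 (adjusted p = 0.066), and under the alternative naming 0.24 (adjusted p = 0.787). HLP+Apocynin was lower than HLP by −0.45 (SE 0.14, adjusted p = 0.0294), or −0.37 (adjusted p = 0.0866) without the doubted arrays and −0.22 (adjusted p = 0.482) under the other names. That call held in 6 of the 12 fits that left out 1 array. The difference between the HLP effects with and without apocynin was −0.62 (SE 0.20, adjusted p = 0.195) and did not pass, as for every probe of this test (0% called).

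In the medulla the signal of Foxi1 was 150.0, 202.0 and 332.8 in controls, 145.9, 193.8 and 236.1 with HLP, 127.2, 173.0 and 239.6 with apocynin, and 106.2, 131.1 and 168.7 with HLP+Apocynin. After normalization all 6 HLP+Apocynin arrays lay below all 6 HLP arrays, as for 2.27% of the probes tested, and 5 of 6 below every control array. The log2 fold change of HLP+Apocynin was −0.42 against control (SE 0.11, limma adjusted p = 0.0255) and −0.40 against HLP (SE 0.11, adjusted p = 0.0287). With robust background parameters both were −0.78 (SE 0.19), with adjusted p = 0.0142 and 0.0144. HLP alone gave −0.01 (adjusted p = 0.999). Under the alternative naming the changes were −0.28 (adjusted p = 0.0986) and −0.21 (adjusted p = 0.336), while apocynin against control, −0.30 (adjusted p = 0.102) under the main names, became −0.50 (adjusted p = 0.00272). The change against control was −0.31 (adjusted p = 0.0533) without control number 3, −0.41 (adjusted p = 0.0531) without HLP+Apocynin number 1 and −0.39 (adjusted p = 0.0535) without HLP+Apocynin number 3. Without the 4 doubted arrays it was −0.39 (adjusted p = 0.0483), and the change against HLP was −0.37 (adjusted p = 0.06). The call against HLP held in 6 of the 12 fits that left out 1 array, from −0.45 to −0.36. In bulk tissue, fewer cells of a type and less RNA per cell cannot be told apart.

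**Figure D3:**
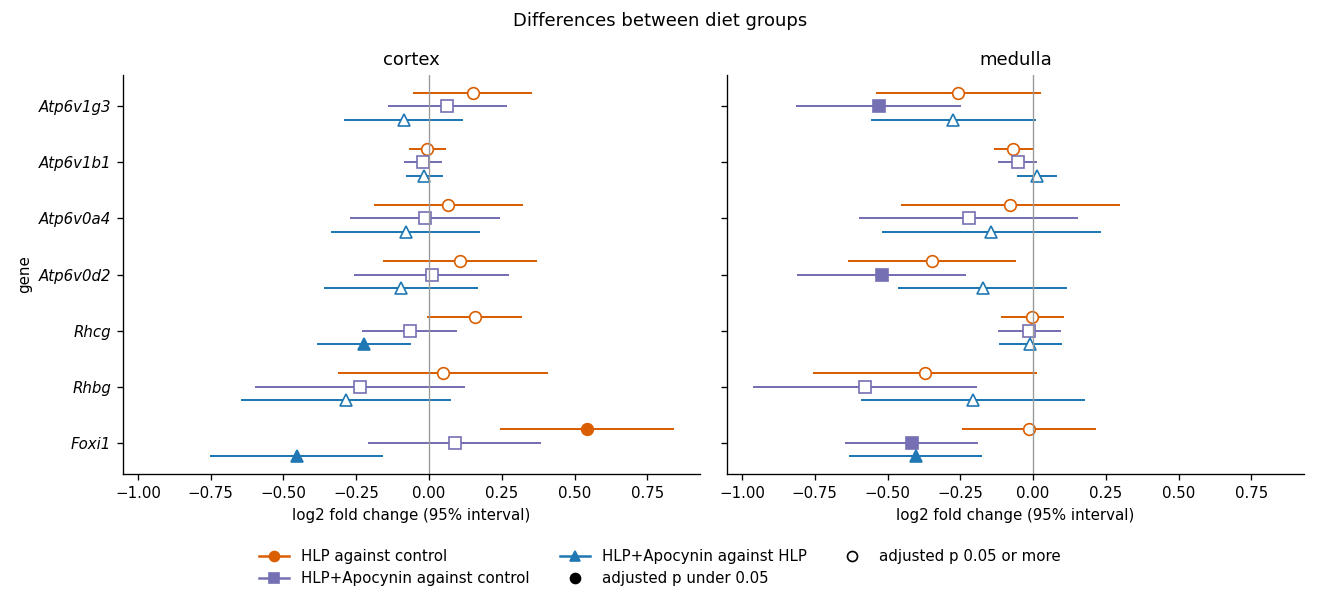
Log2 fold changes of the 7 genes (x axis, with 95% intervals of the limma fit) between diet groups in the cortex and the medulla; filled symbols have an adjusted p under 0.05. In the medulla the 7 values of HLP+Apocynin against control lie below 0 and 3 are filled, and in the cortex Foxi1 is filled for HLP against control (0.54) and for HLP+Apocynin against HLP (−0.45).

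Counted over the 7 genes, 3 were lower in HLP+Apocynin than in control medulla by the limma test (Atp6v1g3, Atp6v0d2 and Foxi1), where 5.12% of the 11972 probes tested were lower and 2.26% higher. The 7 changes had a median of −0.42 and all were below 0, beside a median of −0.00 over all probes. In the order of the opening list they were −0.18, 0.00, 0.03, −0.06, −0.00, −0.26 and −0.28 under the alternative naming. Without the 4 doubted arrays they were −0.51, −0.02, 0.01, −0.39, 0.01, −0.52 and −0.39. For HLP+Apocynin against HLP in the medulla 1 gene, Foxi1, was lower, where 4.65% of probes were. In the cortex 1 gene, Foxi1, was higher with HLP, where 1.03% of 12268 probes were, and 2, Rhcg and Foxi1, were lower in HLP+Apocynin than in HLP, where 9.06% were. None of the 7 passed for HLP against control in the medulla, where 0% of probes did. At an unadjusted p under 0.05 there was 1 gene, Atp6v0d2, beside 6.63% of probes, and the methods' t-test called 0. None passed for HLP+Apocynin against control in the cortex (16% of probes passed, and 30.3% of probes but 0 of the 7 genes had an unadjusted p under 0.05). The same held for apocynin against control in the cortex (16.8% of probes, with 30.2% of probes and 0 of the 7 at an unadjusted p under 0.05) and in the medulla (7.14% of probes, with 21.3% of probes and Atp6v0d2 and Foxi1 at an unadjusted p under 0.05). For each of these the methods' t-test called 0. For HLP+Apocynin against apocynin, the other comparison within a block, 0% of probes passed in either tissue, and 0 of the 7 genes in the cortex and 2 in the medulla, Atp6v1g3 and Rhbg, had an unadjusted p under 0.05, beside 6.98% and 6.04% of probes. These comparisons share arrays and are not independent of each other.

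Under the alternative naming 0 of the 7 genes were called in the 4 comparisons of diet groups that held calls, where 0.0163% (HLP against control, cortex), 12.8% (HLP+Apocynin against HLP, cortex), 6.79% (HLP+Apocynin against control, medulla) and 1.83% (HLP+Apocynin against HLP, medulla) of probes passed. For apocynin against control in the medulla 1 gene, Foxi1, passed, where 15.3% of probes did. The 7 calls of the main naming had the same sign under both. Since 24 of 48 arrays change diet group and the rest keep it, the 2 namings share arrays in each group. The shared sign is therefore not independent support.

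**Figure D4:**
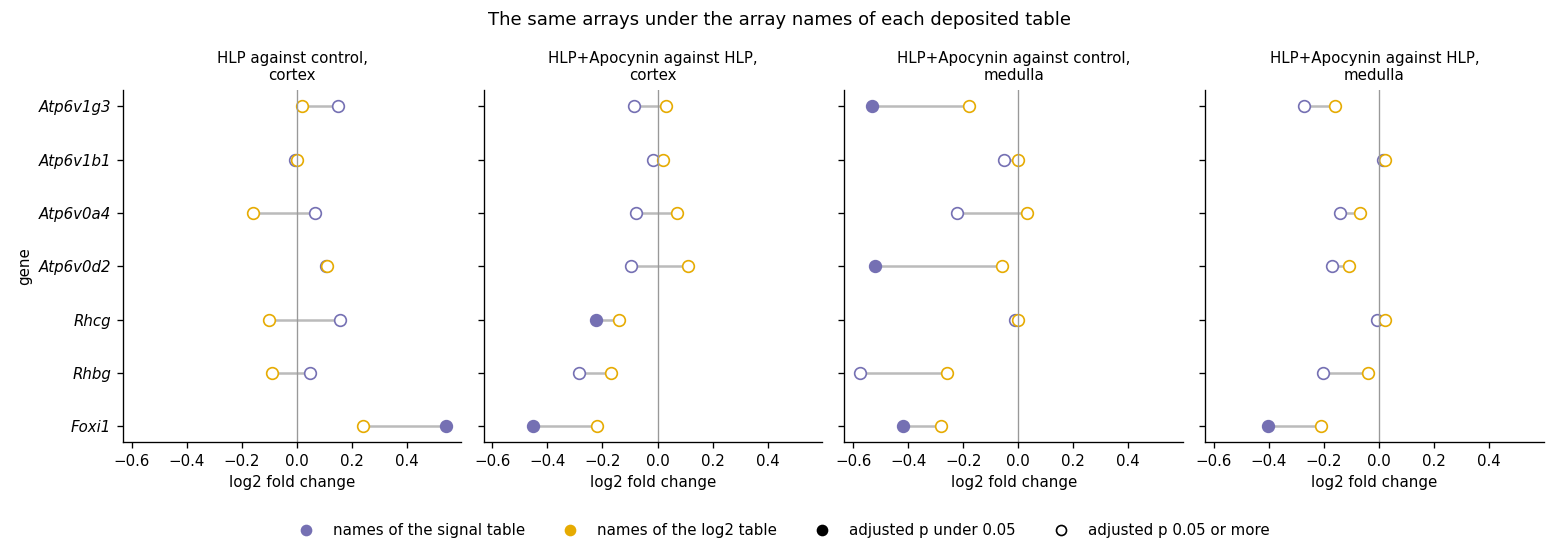
Log2 fold changes of the 7 genes (x axis) in 4 comparisons, with the arrays grouped by the naming of the signal table or of the log2 table; filled points have a limma adjusted p under 0.05. Atp6v0d2 in HLP+Apocynin against control medulla moves from −0.52 to −0.06 and Foxi1 in HLP against control cortex from 0.54 to 0.24.

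Among the other subunits of the same pump, 17 of 21 genes were tested. In HLP+Apocynin against control medulla 3 of the 17 were lower and 0 higher, with a median of −0.10. Of all probes 5.12% were lower there and 2.26% higher. Atp6v1c2, the kidney-enriched form of the C subunit, was lower by a log2 fold change of −0.86 (SE 0.21, limma adjusted p = 0.0159), and Atp6v1e1, the widely expressed E subunit, by −0.32 (SE 0.07, adjusted p = 0.00888). In HLP+Apocynin against HLP cortex 3 of 17 were lower and 0 higher, where 9.06% of all probes were lower. Among the 3 were the catalytic subunit Atp6v1a at −0.65 (SE 0.18, adjusted p = 0.0109) and Atp6v1c1 at −0.36 (SE 0.09, adjusted p = 0.0104). In HLP against control cortex 0 of 17 were called, with a median of 0.14. In HLP against control medulla 0 of 17 were called, with a median of −0.06. None of these 6 lower genes passed under the alternative naming, with changes of −0.22 (adjusted p = 0.663) for Atp6v1c2, −0.13 (adjusted p = 0.307) for Atp6v1e1, −0.41 (adjusted p = 0.212) for Atp6v1a and −0.11 (adjusted p = 0.616) for Atp6v1c1. In HLP+Apocynin against control cortex Tcirg1 was higher at 0.39 (SE 0.12, limma adjusted p = 0.0286) and Atp6v0e1 lower at −0.16 (SE 0.05, adjusted p = 0.0372). There 16% of all probes passed. In HLP+Apocynin against HLP medulla, where 4.65% of all probes were lower, Atp6v1e1 was lower at −0.23 (SE 0.07, adjusted p = 0.0468). It did not pass there under the alternative naming.

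Of 22 other genes known from intercalated cells, 15 were tested. In HLP against control cortex 1 was higher and 0 lower, where 1.03% of all probes were higher. Car12, a membrane-bound carbonic anhydrase, had a log2 fold change of 0.88 (SE 0.22, limma adjusted p = 0.0402) there and of −0.94 (SE 0.22, adjusted p = 0.00434) in HLP+Apocynin against HLP. In the latter comparison 3 of 15 were lower, the others being Oxgr1, a receptor for oxoglutarate, at −0.20 (SE 0.04, adjusted p = 0.00316), and Car2, the cytosolic carbonic anhydrase, at −0.25 (SE 0.07, adjusted p = 0.00873). Of all probes 9.06% were lower there. In HLP+Apocynin against control medulla 1 of 15 was lower, Car2 at −0.26 (SE 0.08, adjusted p = 0.0484), beside 5.12% of all probes. In apocynin against control 2 of 15 were higher and 0 lower in the cortex, Car15, another carbonic anhydrase, at 0.55 (SE 0.18, adjusted p = 0.0371) and Slc4a8, a sodium-driven chloride-bicarbonate exchanger, at 0.05 (SE 0.01, adjusted p = 0.00313). In the same comparison in the medulla Car15 was higher at 1.49 (SE 0.40, adjusted p = 0.0263) and 0 were lower. For apocynin against control 16.8% of all probes passed in the cortex and 7.14% in the medulla, counting both directions. Of the calls of this list, Car2 in HLP+Apocynin against HLP cortex (adjusted p = 0.000451) and Slc4a8 (adjusted p = 0.0384) also passed under the alternative naming. Car12 in both comparisons, Oxgr1, Car2 in HLP+Apocynin against control medulla and Car15 in both tissues did not. Among 8 genes of ammonia production in the proximal tubule, 2 were called lower and 0 higher in HLP+Apocynin against control cortex, with 4 changes above 0, 4 below and a median of 0.03, beside 16% of all probes called. The 2 were Slc38a3, a glutamine transporter, at −0.85 (SE 0.24, adjusted p = 0.0183) and Me1, cytosolic malic enzyme, at −0.82 (SE 0.15, adjusted p = 0.000682). Both were also lower in the cortex than in the medulla with joint normalization, by −1.71 and −0.58 over the 4 diet groups. The control cortex includes number 4, whose markers went against its tissue label, and the part of this array was not tested. In apocynin against control cortex the same 2 genes were lower, at −0.91 (adjusted p = 0.0111) and −0.57 (adjusted p = 0.012), and Slc4a4, the sodium bicarbonate cotransporter, was higher at 0.79 (SE 0.26, adjusted p = 0.0397). Of these 5 calls, only Me1 in apocynin against control cortex (adjusted p = 0.0469) also passed under the alternative naming. In HLP+Apocynin against HLP medulla Car2 (−0.25, limma adjusted p = 0.0478) and Me1 (−0.81, adjusted p = 0.0496) were lower, where 4.65% of all probes were lower. Neither passed there under the alternative naming.

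Markers of other cells moved beside these changes, and their part in the results was not tested. Of all probes, 5.12% were called lower and 2.26% higher in HLP+Apocynin against control medulla. In HLP against control cortex 1.03% were called higher. In HLP+Apocynin against control medulla 11 of 12 principal cell markers, which mark the other cell type of the collecting duct, had a change below 0, with a median of −0.21, 1 called lower (Gata3, −0.26, limma adjusted p = 0.0455) and 1 called higher (Sgk1, 0.86, adjusted p = 0.0184). All 7 markers of fibroblasts and smooth muscle had a change above 0, with a median of 0.84 and 2 called, and their mean log2 signal was 8.57 to 10.52 against 7.97 to 8.49 in controls. All 5 macrophage markers tested had a change above 0, with a median of 0.40 and 0 called. The mean log2 signal of the 12 proximal tubule markers varied from 9.97 to 11.92 among control medulla arrays and from 9.77 to 11.90 among HLP+Apocynin medulla arrays. In HLP against control cortex 11 of 12 proximal tubule markers had a change above 0, with a median of 0.14 and 1 called lower (Slc7a13, −1.42, adjusted p = 0.043). There, 5 of 7 markers of the inner medulla and thin limb had a change below 0 and Cryab was called lower (−2.03, adjusted p = 0.0318). The 12 principal cell markers had a median of −0.00 in HLP against control cortex. In HLP+Apocynin against HLP all 7 fibroblast and smooth muscle markers had a change above 0 in both tissues, with a median of 0.34 and 1 called in the cortex and of 0.82 and 2 called in the medulla (Lum, 0.82, adjusted p = 0.0123, and Tagln, 1.52, adjusted p = 0.0248). All 5 macrophage markers were above 0 in both (medians 0.37 and 0.48, 0 called), and 6 of 7 markers of the thick ascending limb and distal convoluted tubule were below 0 in both (medians −0.28 and −0.13, 0 called). Of the 12 proximal tubule markers 8 were below 0 in the cortex and 10 in the medulla (medians −0.09 and −0.12), and of the 12 principal cell markers 3 and 9 (medians 0.02 and −0.13). Over the pump, intercalated cell, ammonia production and marker lists together, 0 of 3 calls of HLP against control cortex, 4 of 11 of HLP+Apocynin against HLP cortex, 3 of 12 of HLP+Apocynin against control cortex, 0 of 9 of HLP+Apocynin against control medulla and 0 of 6 of HLP+Apocynin against HLP medulla also passed in the same direction under the alternative naming.

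Between the tissues, the genes of the pump and Foxi1 were higher in the cortex when all 48 arrays were normalized together, and for most of them this direction depended on the normalization. Averaged over the 4 diet groups, the difference of cortex minus medulla on the log2 scale was 0.63 (SE 0.06, limma adjusted p = 3.27e-11) for Atp6v1g3, 0.42 (SE 0.07, adjusted p = 5.79e-07) for Foxi1 and 0.35 (SE 0.07, adjusted p = 2.23e-05) for Atp6v0d2. It was 0.22 (adjusted p = 0.0149) for Atp6v0a4, 0.16 (adjusted p = 9.37e-05) for Rhcg and 0.07 (adjusted p = 0.000146) for Atp6v1b1, or 0.48 and 0.32 for the last 2 with robust background parameters. Rhbg was at −0.00 (SE 0.09, adjusted p = 0.977) and was not called. So 6 of the 7 genes were called higher, where 31.5% of 12900 probes were higher and 29% lower. The same 6 were called under the alternative naming, in which no array changes tissue. Medulla arrays were brighter as deposited, and the median of all probes, cortex minus medulla, was 0.00 with joint quantile normalization, −0.07 with median scaling, −0.20 with normalization within each tissue and −0.45 in the deposited log2 values. In the log2 of the deposited signals it was −0.44, so the deposited log2 values keep this difference in brightness. With normalization within each tissue Atp6v0a4 was at −0.25, Atp6v0d2 at −0.11, Atp6v1b1 at −0.10, Rhcg at −0.04 and Rhbg at −0.46. Rhbg was called lower in the cortex in 3 of the 11 alternatives that kept all arrays or left out more than 1, with median scaling (−0.32, adjusted p = 0.00653), with normalization within each tissue (adjusted p = 1.31e-05) and in the deposited log2 values (−0.43, adjusted p = 3.96e-05). Only Atp6v1g3 and Foxi1 stayed above 0 under every alternative run, at 0.25 and 0.09 with normalization within each tissue, and only Atp6v1g3 was called under all of them. Among the other intercalated cell genes, Hmx2 (1.03) and Slc4a9 (1.22) were higher in the cortex and Slc4a1, the basolateral chloride-bicarbonate exchanger of acid-secreting cells (−0.32, adjusted p = 0.00948), was lower.

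In each diet group the tissue difference was also taken alone, with SEs that treat cortex and medulla arrays as independent. In controls it was 0.30 (SE 0.14) for Atp6v1g3, −0.01 (SE 0.13) for Atp6v0d2 and 0.04 (SE 0.15) for Foxi1, and without control number 4 it was 0.39, 0.07 and 0.05. In the HLP group it was 0.70, 0.44 and 0.60. With apocynin it was 0.64, 0.47 and 0.51. In the HLP+Apocynin group it was 0.89, 0.52 and 0.54. The test of the HLP+Apocynin effect in the cortex against that in the medulla gave 0.59 (SE 0.17, limma adjusted p = 0.019) for Atp6v1g3, where 7.22% of 12900 probes were called in this direction. It gave 0.53 (adjusted p = 0.071) for Atp6v0d2 and 0.51 (adjusted p = 0.0726) for Foxi1. The labels do not say that the number shared by cortex and medulla arrays of a group names a rat. With that number taken as the rat, as a random block, all 3 passed. The limma adjusted p was then 0.00837 for Atp6v1g3, 0.0343 for Atp6v0d2 (SE 0.17) and 0.039 for Foxi1 (SE 0.17). Without the 4 doubted arrays the value of Atp6v1g3 was 0.58 (adjusted p = 0.0342), and under the alternative naming 0.24 (adjusted p = 0.541), where 6.74% of probes passed. The same test for HLP alone gave 0.41 (adjusted p = 0.581) for Atp6v1g3, 0.45 (adjusted p = 0.585) for Atp6v0d2 and 0.56 (adjusted p = 0.486) for Foxi1, and 0% of probes passed. At an unadjusted p under 0.05 there were these 3 genes, beside 7.11% of probes.

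**Figure D5:**
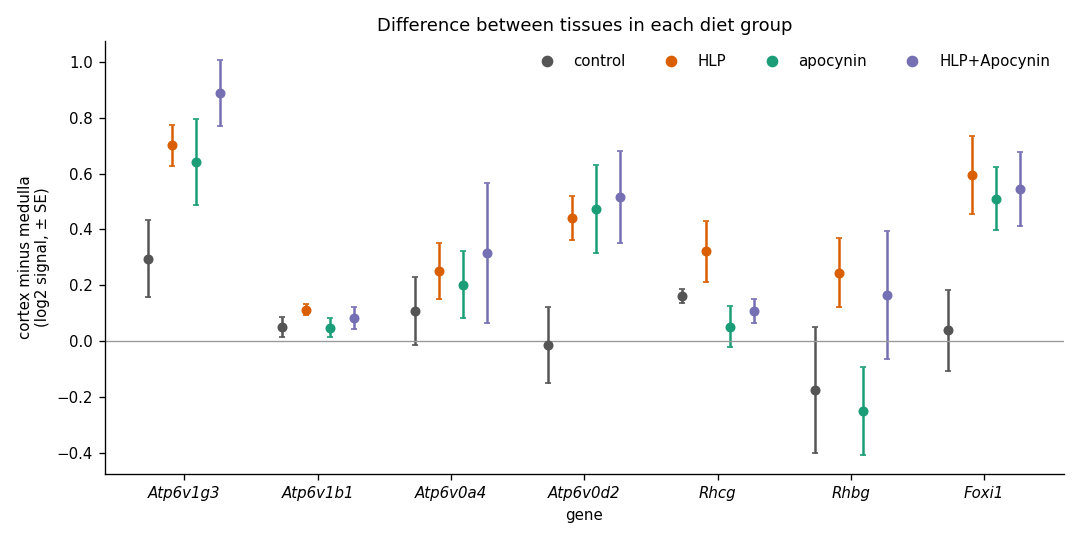
Cortex minus medulla in log2 signal (y axis, ± SE, n = 6 arrays per tissue) for the 7 genes in each diet group, with all 48 arrays normalized together. The SE treats cortex and medulla arrays as independent. The sign of most tissue differences depends on this joint normalization. Foxi1 and Atp6v0d2 lie near 0 in controls (0.04 and −0.01) and between 0.44 and 0.60 in the other 3 groups, while Rhbg lies at −0.17 in controls and 0.25 with HLP.

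Within groups, some pairs of the 7 genes varied together from array to array. Deviations from the group means were correlated over the 24 arrays of each tissue, with permutation within groups (100000 draws, two-sided) and Benjamini-Hochberg adjustment over the 42 relations computed. By Pearson's r 9 of 21 pairs passed in each tissue, and 6 pairs passed in both. Passing below refers to r, and the permutation p of Spearman's rho is given unadjusted. Fewer pairs passed by rho with the same adjustment. Of the 6, only Atp6v1g3 with Atp6v0d2 then passed in both tissues (adjusted p of rho 0.0361 in the cortex, 0.0487 in the medulla). In the cortex the adjusted p of rho was 0.0649 for Atp6v0d2 with Foxi1 and 0.0671 for Atp6v1g3 with Rhbg. For Atp6v1g3 and Atp6v0d2, Pearson's r was 0.70 in the cortex (permutation p = 0.00191, adjusted p = 0.016, Spearman's rho 0.65, permutation p = 0.00258, r without the 2 farthest arrays 0.64) and 0.65 in the medulla (permutation p = 0.0042, adjusted p = 0.016, rho 0.56, permutation p = 0.0113, r without the 2 farthest arrays 0.44). For Atp6v0d2 and Foxi1 it was 0.63 in the cortex (permutation p = 0.0017, adjusted p = 0.016, rho 0.49, permutation p = 0.0216, then 0.43) and 0.68 in the medulla (permutation p = 0.00022, adjusted p = 0.00924, rho 0.69, permutation p = 0.00077, then 0.59). For Atp6v1g3 and Rhbg it was 0.57 in the cortex (permutation p = 0.0188, adjusted p = 0.0439, rho 0.51, permutation p = 0.0268, then 0.54) and 0.58 in the medulla (permutation p = 0.00622, adjusted p = 0.0201, rho 0.67, permutation p = 0.00162, then 0.76). The relation of Atp6v0a4 and Rhbg in the cortex (r 0.59, permutation p = 0.017, adjusted p = 0.0439, rho 0.55, permutation p = 0.0074) rested on 2 arrays, since r without them was 0.26. Also passing in both tissues were Atp6v1b1 with Atp6v0a4 (r 0.63 in the cortex, 0.70 in the medulla) and with Atp6v0d2 (0.63, 0.61). Atp6v1g3 with Foxi1 (0.50, 0.62) did so too. In the cortex alone Rhbg also passed with Atp6v1b1 (0.65) and Atp6v0d2 (0.71). In the medulla alone Atp6v1g3 and Atp6v1b1 (0.65) and Atp6v0a4 and Atp6v0d2 (0.515) passed. So did Rhbg and Foxi1 there (0.56, or 0.30 without the 2 farthest arrays). Pairs that did not pass included Atp6v0a4 and Foxi1, with r of 0.04 in the cortex (permutation p = 0.876, adjusted p = 0.919) and 0.05 in the medulla (permutation p = 0.802, adjusted p = 0.897). Atp6v0a4 and Rhbg in the medulla, with r of 0.05 (permutation p = 0.835, adjusted p = 0.899), did not pass either. Every pair with Rhcg had an r between −0.20 and 0.41 and none passed. With robust background parameters Atp6v0a4 and Rhcg passed in the medulla (r 0.52, permutation p = 0.0112, adjusted p = 0.0325, rho 0.44, permutation p = 0.0356, then 0.39). Under the alternative naming Rhcg and Foxi1 passed in the cortex (r 0.47, permutation p = 0.0164, adjusted p = 0.0313, rho 0.55, permutation p = 0.00365, then 0.45). Other genes also varied with these members. Among 9238 other probes, ranked by r over the 48 arrays, Atp6v0d2 ranked 5 for Atp6v1g3 and 12 for Foxi1. By contrast, Atp6v1b1 ranked 404 for Atp6v0a4, and Atp6v0d2 ranked 204 for Atp6v1b1. The count of passing pairs is thus not particular to this set. Arrays differed in the levels of markers of tubule segments, as given above, and the part of this in the correlations was not tested.

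The genes most like each member over the 48 arrays, by Pearson's r of deviations from group means among 9102 genes, are given as a description. For Atp6v0d2 they were Atp6v1c2 (0.78), Hepacam2 (0.77) and Sdhb (0.74), and for Rhbg Atp6v1c2 (0.70), Inpp5j (0.70) and Bcar3 (0.64). For Atp6v1g3 they were Ldhb (0.74), Prkag2 (0.74) and Rragd (0.69), and for Foxi1 Stard8 (0.74), Dmtn (0.71) and Ppif (0.68). For Atp6v0a4 they were Slc37a4 (0.88), Gas2 (0.87) and Mrpl15 (0.86), and for Atp6v1b1 Aldh5a1 (0.85), Gfra3 (0.80) and Umps (0.79). For Rhcg they were Flrt2 (0.95), Asgr2 (0.94) and Hoxa11 (0.93), with r of 0.82, 0.82 and 0.83 without the arrays of HLP number 3 and apocynin number 1. Of the 7 genes, Atp6v0d2 and Rhbg thus shared Atp6v1c2, itself a pump subunit.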

How the data were processed

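Each of the 48 Illumina RatRef-12 arrays holds RNA of 1 rat kidney cortex or medulla, 6 arrays in each of 8 groups. The authors read the arrays with Genome Studio and deposited probe intensities with no background subtraction, together with a detection p-value per probe and array. The deposited log2 values follow the log2 of the deposited signals of the same arrays (lowest r 0.9999999999), with other array names, and served as an alternative. They keep the difference in brightness between cortex and medulla arrays that the signals hold. All columns of per-sample values were used.

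Intensities were background-corrected by normexp from the detection p-values (limma nec, offset 16), quantile-normalized over 48 arrays and log2-transformed. A probe was tested where its detection p was under 0.05 on at least 6 arrays, 12268 in the cortex, 11972 in the medulla and 12900 in both. Each tissue was fitted with its 4 diet groups (limma 3.58.1 with trend, R 4.3.3), and both tissues in 1 fit. That fit treated cortex and medulla arrays as independent. An alternative took the number shared within a group as the rat, as a random block. Calls had a Benjamini-Hochberg adjusted p under 0.05 over all probes. The correction took the spread of the negative controls as 81.0 to 156, against 3.27 to 11.2 by robust statistics, so that no corrected signal was below 67.5 and changes of dim probes were understated. The fits were tested on simulated data. Correlations used numpy 2.4.6 and scipy 1.17.1. The number of arrays limits the precision. P-values measure the spread between these arrays.

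The members and gene lists were chosen with earlier results of these data known. Besides the 7 genes, genes of the lists were named from up to 2 higher and 2 lower genes of smallest adjusted p in a comparison. Not every comparison is described and not every called gene of the lists is named. The 3 genes most correlated with each member are also given. Car2 in the cortex was named after its value was seen. Alternatives were other background corrections, scalings, filters, array names, blocks, fits on fewer arrays, the methods' t-test and leaving out each array. The robust background parameters, the mean HLP effect over both blocks and leaving out the doubted arrays were chosen after seeing the data or earlier results.

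Cortex and medulla arrays of the same group and number deviated together with a median r of 0.37 (−0.79 to 0.80). For 18 of 24 the array of the same number was the closest. The labels do not say that a number names a rat.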

Additional observations from a re-analysis of the deposited data

Results flagged for a closer look

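Among 56 sets of 6 arrays (7 genes in 8 groups), 6 held an array whose gap to its nearest neighbour exceeded Dixon's critical share of the range, where chance gives about 1 in 20. Rhcg was high on HLP cortex number 3 (log2 signal 7.5348, nearest 7.0083), on HLP medulla number 3 (6.9391, nearest 6.6846) and on apocynin cortex number 1 (7.0297, nearest 6.8093). Atp6v1g3 was high on apocynin cortex number 5 (13.0061, nearest 12.7181). Atp6v1b1 was high on HLP+Apocynin medulla number 5 (6.754, nearest 6.6261), where its deposited signal was not the highest of the group. Atp6v0d2 was low on HLP+Apocynin medulla number 3 (8.5349, nearest 8.9314), the array on which the fibroblast and smooth muscle markers stood high.

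The effect of HLP+Apocynin on Atp6v1g3 differed between cortex and medulla by 0.5929 on the log2 scale in the test of the difference (limma adjusted p = 0.019).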

How the results depend on the processing

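The number of the 7 genes called depended on single arrays and on the array names. For HLP against control in the cortex it was 1 and became 0 without background correction, with median scaling, with no filter, in the deposited log2 values, under the alternative naming, without the doubted arrays, with robust background parameters, with 36 arrays without the apocynin group, in a fit on the 12 arrays compared and by the methods' t-test. Leaving out 1 array gave 0 to 1. For HLP+Apocynin against HLP in the cortex it was 2 and became 1 with detection in at least 50% of arrays, with the replicate block and with 36 arrays. It became 0 under the alternative naming, with the arrays of the same group in both tables, without the doubted arrays, on 12 arrays and by the methods' t-test, and leaving out 1 array gave 0 to 2. In the medulla, for HLP+Apocynin against control, it was 3 and became 1 in the deposited log2 values. It became 0 under the alternative naming, with arrays of the same group, on 12 arrays and by the methods' t-test, and leaving out 1 array gave 0 to 4. For HLP+Apocynin against HLP in the medulla it was 1 and became 0 with median scaling, under the alternative naming, with arrays of the same group and without the doubted arrays, and leaving out 1 array gave 0 to 1. For apocynin against control in the medulla it was 0, and 1 (Foxi1) under the alternative naming, and leaving out 1 array gave 0 to 1. The cause was not tested.

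For the tissue difference in the HLP+Apocynin effect the count was 1 (Atp6v1g3). It became 2 without background correction and with robust background parameters, 3 with median scaling, 0 under the alternative naming, and 1 to 3 leaving out 1 array. With the number taken as the rat, as a random replicate block across tissues, it was 3. Each rat had 1 diet, so a number shared between diet groups does not name a shared rat. Between groups, the median r of same-numbered arrays was 0.016 for cortex (−0.19 to 0.56) and 0.097 for medulla (−0.62 to 0.85).

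For cortex against medulla, Atp6v0a4 reversed to −0.12 with median scaling. With normalization within each tissue Atp6v1b1 reversed to −0.10, Atp6v0a4 to −0.25, Atp6v0d2 to −0.11 and Rhcg to −0.044. In the deposited log2 values Atp6v1b1 reversed to −0.20, Atp6v0a4 to −0.24, Atp6v0d2 to −0.11 and Rhcg to −0.048. Rhbg, not called in the main fit, was called lower with median scaling (−0.32), within each tissue (−0.46) and in the deposited log2 values (−0.43). The median of all probes, cortex minus medulla, was itself −0.07, −0.20 and −0.45 in these settings. These values are therefore to be read beside that shift of all probes. The cause was not tested. Of 3185 values of the 7 genes under an alternative, 3002 kept their direction and side of the threshold, or moved within the spread. This share says little about the calls. Of the values, 1848 came from fits that left out 1 array. Only 14 of the 105 results were called in the main fit, so most values had no call to lose. In all, 217 values changed sign, among them the 9 reversed values of cortex against medulla.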
